A study of Macaca nemestrina with 15 samples.

Results

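HMGCS1, IDI1, FDFT1, SQLE, SREBF2, INSIG1, ABCA1 and ABCG1 are 8 genes of cholesterol synthesis, sterol sensing and cholesterol efflux. They were followed in peripheral blood mononuclear cells (PBMCs) of pig-tailed macaques given oral islatravir (ISL), a nucleoside reverse transcriptase translocation inhibitor. The genes were taken by name from the table of read counts, which lists 28865 features. All 8 had a row, and all 8 were among the 12880 features that remained after edgeR's filter on low counts. The same 5 animals gave a library at each of 3 time points, so there were 15 libraries. The pre-treatment libraries came before the first dose and are labelled as controls. The week 12 libraries were taken during weekly oral doses of 30 mg/kg ISL. By the authors' methods, the week 18 libraries were taken 6 weeks after the last of the 12 doses. A figure legend of theirs gives a shorter time, and the dates in the library names lie closer together than these weeks. No untreated animals were sequenced alongside, so ISL and the passage of time cannot be told apart. PBMCs are a mixture of lymphocytes, monocytes and other blood cells, and in such bulk RNA fewer cells of a type and less RNA per cell cannot be told apart.

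Cells build cholesterol from acetyl-CoA through the mevalonate pathway. The transcription factor SREBP2, encoded by SREBF2, switches on the enzymes of this pathway when membrane sterol is low, and INSIG1 holds SREBP2 back in the endoplasmic reticulum when sterol is plentiful. When sterols accumulate, oxysterols activate the liver X receptors (LXRs), which switch on the efflux transporters ABCA1 and ABCG1. In blood, monocytes and macrophages are best known for LXR-driven efflux, while proliferating lymphocytes draw on the synthesis pathway.

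Total counts per library were 7634524 to 10379572 in 13 libraries. Animal Z15303 gave the other 2, with 5610597 counts at week 12 and 5886482 at week 18. These 2 libraries also stood apart on the first principal component, which held 24.0% of the variance, at −60.6 and −57.7 against −25.4 to 25.1 in the 13 others. Values without this animal are given beside those it moved most. Blood cell markers were present in every library, with CD14 of monocytes at 237 to 1177 CPM (read counts scaled to library size), MS4A1 of B cells at 10.8 to 191 CPM, CD3E of T cells at 12.0 to 107 CPM and PPBP of platelets at 1229 to 4635 CPM. The B-cell markers moved with time. All 9 tested B-cell markers were lower after the start of treatment, with median log2 fold changes of −1.0 at week 12 and −1.07 at week 18, although none passed edgeR's adjusted threshold. In 5 of 5 animals 9 of the 9 were lower at week 12 and 8 of the 9 at week 18, against 3.45% and 3.49% of all features. The summed CPM of the 10 listed B-cell markers was lower in 5 of 5 animals at both times. It ranged from 261 to 1085 CPM before treatment, from 149 to 550 CPM at week 12 and from 193 to 454 CPM at week 18. The summed CPM of 9 monocyte markers ranged from 2244 to 4295 before treatment, from 2296 to 3653 at week 12 and from 2603 to 5457 at week 18. It was lower at week 12 in 3 of 5 animals and higher at week 18 in 4 of 5. Summed dendritic cell markers were lower at week 12 in 5 of 5 animals and summed plasma cell markers lower at week 18 in 5 of 5. From week 12 to week 18, 4 of 10 NK and cytotoxic markers were lower in 5 of 5, as 2.87% of features were, and 1 was higher. The part of these cell types in the values below was not tested.

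None of the 8 genes passed the test in any comparison. By the quasi-likelihood test of edgeR on the time point alone, called at a Benjamini-Hochberg adjusted p of 0.05, 0% of the 12880 features were called at week 12 vs. pre-treatment, 0% at week 18 vs. pre-treatment and 0% at week 18 vs. week 12. At an unadjusted p of 0.05 the same fits took 0 of the 8 genes in each comparison, against 1.61%, 1.69% and 0.505% of all features. The libraries of an animal deviated together from the time-point means, so each test was repeated with the animal as a block. With the block, 0 of the 8 genes passed the adjusted threshold, against 0.00776% of features at week 12 and week 18 vs. pre-treatment and 0% at week 18 vs. week 12. At an unadjusted p of 0.05 the blocked fit took 0 of 8 at week 12, against 4.69% of features, 3.25% lower and 1.44% higher. It took ABCA1 alone in the other 2 comparisons, in each as lower at week 18, against 3.78% of features lower than before treatment and 1.01% lower than at week 12. DESeq2 likewise called 0 of the 8 genes, without the block against 0.00483%, 0% and 0% of features and with it against 0.179%, 0.241% and 0.0386%. Each gene's 3 groups of libraries overlapped, and such separation was seen in 0.28%, 0.334% and 0.101% of features.

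**Figure D1:**
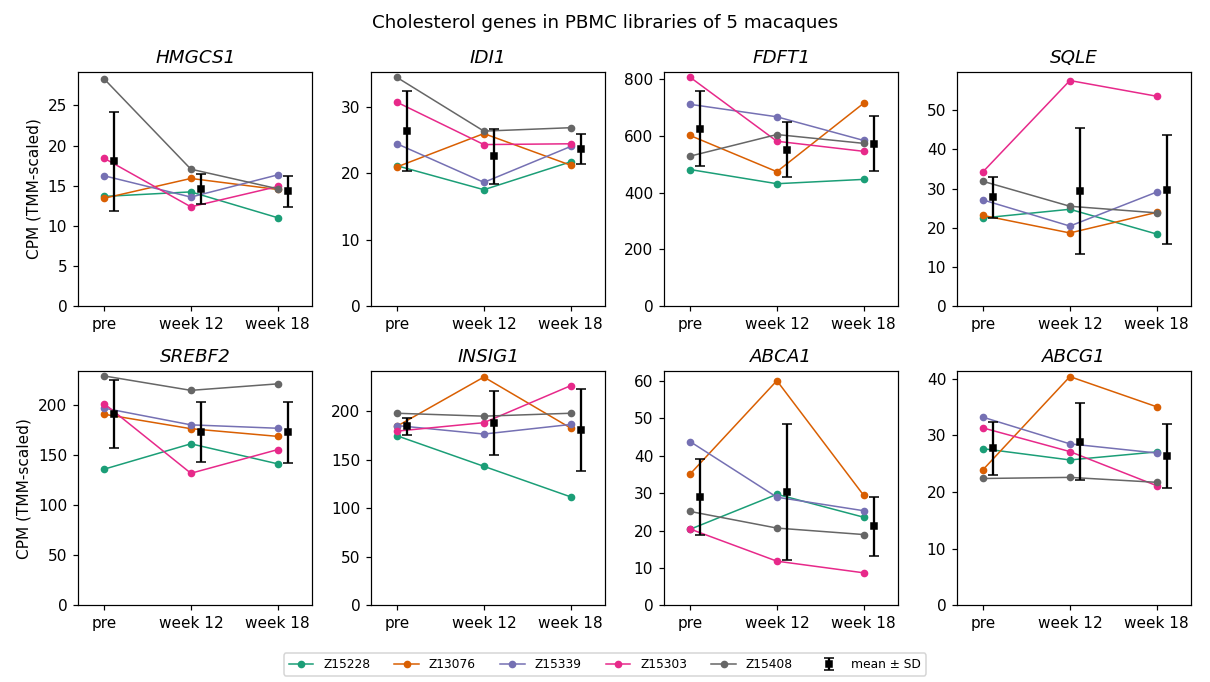
CPM from TMM-scaled libraries (vertical axes, each from 0) of the 8 genes at pre-treatment, week 12 and week 18. Coloured lines join the 3 libraries of an animal, and black squares with bars give the mean ± SD of 5 animals. SQLE of animal Z15303 reached 57.6 CPM at week 12, and ABCA1 of the same animal went down to 8.69 CPM at week 18.

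HMGCS1 makes HMG-CoA, an early step of the mevalonate pathway. Before treatment the 5 animals Z15228, Z13076, Z15339, Z15303 and Z15408 had 13.7, 13.4, 16.2, 18.4 and 28.3 CPM of HMGCS1. In the same order of animals, which is kept below, they had 14.2, 15.9, 13.6, 12.4 and 17.1 CPM at week 12 and 11.0, 14.5, 16.3, 14.9 and 14.6 CPM at week 18. Z15408 stood highest before treatment, while the later values lay close together. The mean was 18.0 ± 6.11 CPM (SD, n = 5) before treatment, 14.6 ± 1.86 CPM at week 12 and 14.3 ± 1.97 CPM at week 18. The coefficient of variation between animals was 33.9% before treatment, 12.7% at week 12 and 13.8% at week 18. HMGCS1 had the lowest log2 fold change of the 6 synthesis and sterol-sensing genes at both later times, −0.30 at week 12 (95% interval −0.71 to 0.12) and −0.33 at week 18 (−0.75 to 0.08). It was lower in 3 of 5 animals at each time, and Z15408 differed most, at −0.72 and −0.94 on the log2 scale. Without Z15408 the log2 fold changes were −0.14 and −0.12, and without Z13076 they were −0.42 and −0.43. With the block and without Z13076 they were −0.38 and −0.40, with unadjusted edgeR p of 0.0456 and 0.0386, while the blocked values over 5 animals were −0.26 and −0.30 with p of 0.132 and 0.0859. Z13076 differed most upward at both times, by 0.24 and 0.11 on the log2 scale. The smaller p values thus follow from leaving it out and are no added evidence of a change.

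IDI1 interconverts the isoprenoid building blocks of the pathway. Its values were 21.2, 21.0, 24.5, 30.7 and 34.5 CPM before treatment, 17.5, 26.0, 18.7, 24.4 and 26.4 CPM at week 12 and 21.8, 21.2, 24.1, 24.5 and 26.9 CPM at week 18. The groups overlapped, and the 2 animals with the most IDI1 before treatment, Z15303 and Z15408, were lower at both later times. IDI1 was lower at week 12 in 4 of 5 animals, all but Z13076, with a log2 fold change of −0.22 (−0.58 to 0.13). Without Z13076 it was −0.35, and −0.35 with the block, with an unadjusted edgeR p of 0.0186. As Z13076 was the only animal with higher IDI1, the small p follows from leaving it out and is no added evidence of a change. At week 18 the log2 fold change was −0.15 (−0.51 to 0.20), with 3 of 5 animals lower, and −0.10 without Z15303 or −0.09 without Z15408.

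FDFT1, squalene synthase, commits isoprenoids to sterols. Its values were 481, 601, 711, 806 and 528 CPM before treatment, 431, 473, 667, 581 and 604 CPM at week 12 and 446, 715, 583, 545 and 573 CPM at week 18. Between 3074 and 7266 reads lay behind each value. At week 12 it was lower in 4 of 5 animals, all but Z15408, with a log2 fold change of −0.18 (−0.54 to 0.17), which was −0.08 without Z15303 and −0.27 without Z15408. At week 18 the log2 fold change was −0.13 (−0.48 to 0.23) with 3 of 5 animals lower, and without Z15303 it was close to 0, at 0.0047 in the fit without the block. Without Z13076 it was −0.23.

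SQLE, squalene epoxidase, carries out the first oxygenation of the sterol branch. Its values were 22.5, 23.1, 27.1, 34.3 and 31.8 CPM before treatment, 24.7, 18.7, 20.4, 57.6 and 25.5 CPM at week 12 and 18.4, 23.9, 29.1, 53.6 and 23.8 CPM at week 18. Z15303 was the highest of the 5 animals at all 3 times and by a wide margin at the later 2, in the libraries that stood apart. Between animals SQLE had a coefficient of variation of 18.8% before treatment, which was 54.5% and 46.5% at the later times. The log2 fold change was 0.07 at week 12 (−0.59 to 0.73) and 0.09 at week 18 (−0.57 to 0.75). Without Z15303 both turned negative, to −0.22 and −0.13. In Z15303 SQLE was higher by 0.74 and 0.64 on the log2 scale, while HMGCS1, IDI1 and FDFT1 of the same animal were lower, with differences of −0.57 to −0.30.

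SREBF2 encodes the transcription factor of the pathway, whose activity is set largely by processing of the protein, which read counts do not measure. Its values were 136, 191, 197, 201 and 229 CPM before treatment, 161, 176, 180, 132 and 214 CPM at week 12 and 141, 169, 177, 155 and 221 CPM at week 18. It was lower in 4 of 5 animals at both times, all but Z15228. The log2 fold changes were −0.14 at week 12 (−0.48 to 0.19) and −0.14 at week 18 (−0.48 to 0.19). Z15303 had the largest difference at both times, −0.61 and −0.37, and without this animal the log2 fold changes were −0.03 and −0.08.

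INSIG1 encodes the sterol sensor that retains SREBP2 and is itself a target of SREBP2. Its values before treatment, 175, 184, 185, 179 and 198 CPM, were the closest together of the 8 genes, with a coefficient of variation of 4.71%. At week 12 they were 143, 235, 176, 188 and 195 CPM and at week 18 they were 112, 182, 186, 226 and 198 CPM, with coefficients of variation of 17.7% and 23.4%. The spread came from animals on opposite sides. Z15228 differed by −0.64 on the log2 scale at week 18 and Z15303 was higher by 0.33, while Z13076 was higher by 0.35 at week 12. The log2 fold changes were 0.02 at week 12 (−0.32 to 0.37) and −0.03 at week 18 (−0.37 to 0.31). Neither gene of this feedback pair thus had an interval at week 12 or week 18 that left out 0.

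ABCA1 moves cholesterol and phospholipid out of cells onto lipid-poor apolipoproteins. Its values were 20.3, 35.1, 43.8, 20.4 and 25.1 CPM before treatment, 29.7, 60.1, 28.9, 11.8 and 20.7 CPM at week 12 and 23.6, 29.4, 25.3, 8.69 and 18.9 CPM at week 18. Z15303 was the lowest at both later times, with only 64 and 49 reads on the gene. Mean ABCA1 was 29.0 ± 10.3 CPM (SD, n = 5) before treatment, 30.2 ± 18.2 CPM at week 12 and 21.2 ± 7.93 CPM at week 18. At week 12 the animals split. Z15228 and Z13076 were higher than before treatment by 0.54 and 0.77 on the log2 scale, and Z15339, Z15303 and Z15408 were lower, with differences of −0.78 to −0.28. The log2 fold change was 0.07 (−0.72 to 0.85), and it ranged from −0.26 without Z13076 to 0.28 without Z15339. The 3 animals that were lower are also the 3 whose library names share dates, while the other 2 each have dates of their own, and what the dates mark is not stated. Over these 3 animals alone the blocked log2 fold change at week 12 was −0.54 for ABCA1, which restates their lower values, and it was −0.52 for HMGCS1, −0.36 for IDI1 and −0.26 for SREBF2, with the other 4 genes between −0.13 and 0.02. At week 18 vs. pre-treatment these were −0.77 for ABCA1 and −0.41 for HMGCS1, with the other 6 between −0.29 and 0.13.

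At week 18, ABCA1 was lower than before treatment in 4 of 5 animals and lower than at week 12 in 5 of 5, a direction that 2.87% of all features shared in the second comparison, while 2.99% were higher in 5 of 5. No other of the 8 genes had the same direction in all 5 animals of a comparison, so the counts were 0, 0 and 1 of 8, against 5.68%, 6.53% and 5.86% of features. Against pre-treatment the log2 fold change was −0.44 without the block (−1.24 to 0.35) and −0.50 with it (−0.92 to −0.08). The blocked edgeR test gave an unadjusted p of 0.0231 and a Benjamini-Hochberg adjusted p of 0.814. Without Z15303 the blocked log2 fold change was −0.33, with an unadjusted edgeR p of 0.125, and without Z15339 it was −0.41 with a p of 0.094. Against week 12 the log2 fold change was −0.51 without the block (−1.30 to 0.28) and −0.45 with it (−0.87 to −0.02). The blocked edgeR test gave an unadjusted p of 0.0392 and an adjusted p of 1. The size and p of this difference rested largely on Z13076, which differed by −1.03 on the log2 scale. Without this animal the blocked value was −0.26 with an unadjusted edgeR p of 0.198. The other animals differed by −0.43 to −0.13. From week 12 to week 18 the summed markers of Z13076 differed on the log2 scale by 1.00 for monocytes, 1.45 for neutrophils and −0.92 for platelets. Those of red blood cells, dendritic cells, B cells and plasma cells differed by 2.42, 0.81, 0.37 and 0.30. Those of T and of NK and cytotoxic cells differed by −0.22 and −0.63. From pre-treatment to week 12, when its ABCA1 was higher, those of monocytes, neutrophils and platelets differed by −0.66, −0.93 and 1.22. Over the 5 animals, the platelet differences at week 12 were −1.17, 1.22, 0.44, 0.29 and 0.046, while ABCA1 was higher in Z15228 and Z13076 alone. Those of monocytes were −0.24, −0.66, 0.033, −0.13 and 0.12, and of neutrophils −0.14, −0.93, 0.14, 0.45 and −0.080. The part of these cells in the ABCA1 values was not tested.

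ABCG1 moves cholesterol onto mature high-density lipoprotein. Its values were 27.6, 23.9, 33.2, 31.3 and 22.4 CPM before treatment, 25.6, 40.3, 28.5, 27.1 and 22.6 CPM at week 12 and 27.1, 35.0, 26.9, 21.1 and 21.7 CPM at week 18. Z13076 alone was clearly higher than before treatment, by 0.75 at week 12 and 0.55 at week 18 on the log2 scale. The log2 fold changes were 0.06 at week 12 (−0.32 to 0.44), −0.07 at week 18 vs. pre-treatment (−0.45 to 0.31) and −0.13 at week 18 vs. week 12 (−0.51 to 0.25). Without Z13076 those against pre-treatment were −0.14 and −0.24. Z15303 differed by −0.56 at week 18 vs. pre-treatment, and without this animal that log2 fold change was 0.054. The interval at week 12 spans 0.801-fold to 1.35-fold.

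**Figure D2:**
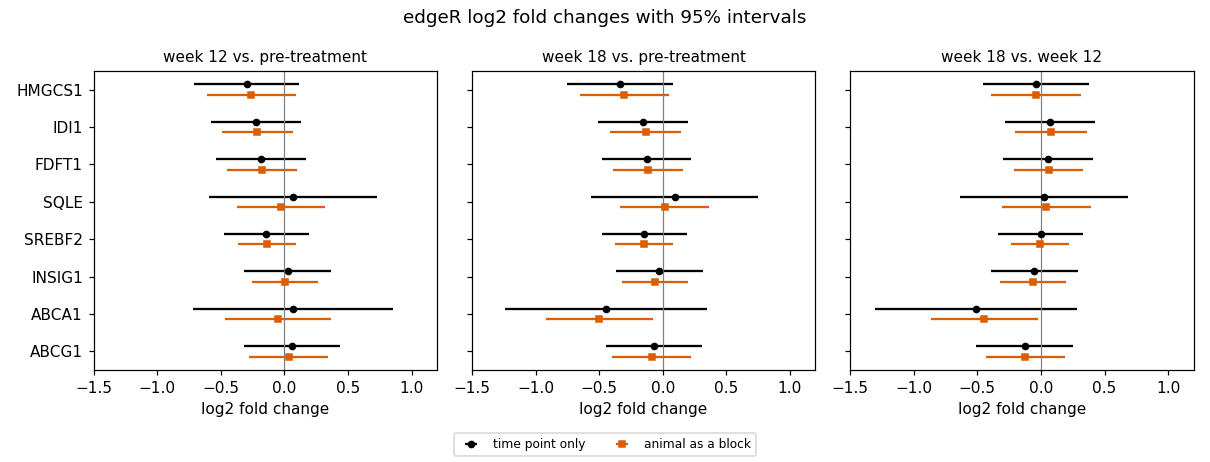
Fitted log2 fold changes (points) with 95% intervals (lines) of the 8 genes in the 3 comparisons, from edgeR with the time point only (black) and with the animal as a block (orange). All intervals cross 0 except those of ABCA1 with the block at week 18 vs. pre-treatment and at week 18 vs. week 12.

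The median log2 fold change of the 6 synthesis and sterol-sensing genes was −0.16 at week 12 and −0.14 at week 18 vs. pre-treatment, against 0.00 over all tested features in both. The SD over animals of the median within-animal difference was 0.176 and 0.145, and these medians were of the size of that spread. The SD describes single animals and is not the error of the median, which was not tested. From week 12 to week 18 the median was 0.01 with an SD of 0.178. The median of ABCA1 and ABCG1 was 0.06, −0.26 and −0.32 in the 3 comparisons, with SDs of 0.512, 0.436 and 0.226. Both comparisons against pre-treatment share the same pre-treatment libraries. Z15408, for instance, was high before treatment in HMGCS1 and IDI1, and that library enters both.

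**Figure D3:**
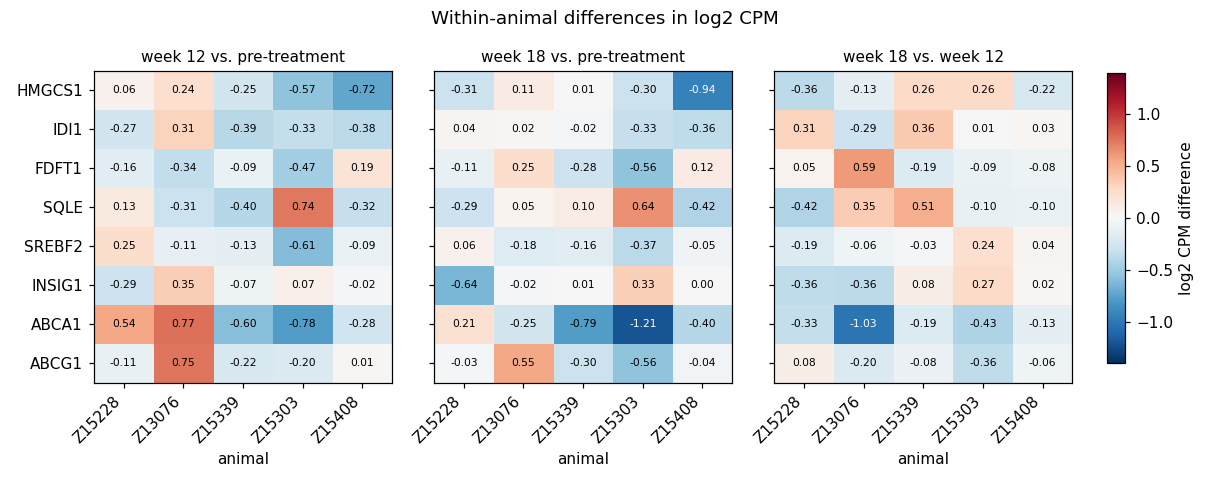
Within-animal differences in log2 CPM (colour and printed value, prior count 2) of the 8 genes (rows) in the 5 animals (columns) for the 3 comparisons. In the right panel ABCA1 was lower in 5 of 5 animals, with differences of −1.03 to −0.13, and no other row has 1 sign throughout.

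In each of the 8 genes the means of the 5 animals lay farther apart than those of the 3 time points. This is likely even without a real difference, since 5 means of 3 libraries are set against 3 means of 5 libraries. The shares of the sum of squares favour the animal for the same reason. The animal held 38.8% of the sum of squares of log2 CPM for HMGCS1 and 77.7% for SQLE, the lowest and highest of the 8, against a median of 51.9% over all tested features. The time point held 18.6% for HMGCS1, 12.8% for IDI1 and 11.0% for ABCA1, and 0.177% for SQLE, against a median of 6.23%. The animal means of ABCA1 spanned 3.05-fold, from Z15303 to Z13076, and those of SQLE 2.17-fold, from Z15228 to Z15303. Those of the 6 other genes spanned 1.41-fold to 1.52-fold, with Z15228 the lowest in 5 of them.

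Some of the 8 genes followed each other across libraries, given here as Pearson's r over 15 libraries that share animals and time points, with no test. HMGCS1 and IDI1 had an r of 0.75, and 0.65 after each animal's mean was subtracted. ABCA1 and ABCG1 had an r of 0.64, and 0.66 within animals. Over the 12 libraries without Z15303 these were 0.78 and 0.59 for the first pair and 0.75 and 0.50 for the second. SQLE and HMGCS1 had an r of 0.17 over 15 libraries and 0.75 over the 12. The opposite order of SQLE and ABCA1, an r of −0.75, likewise rested on Z15303 and was −0.24 without it. The pairs did not keep to synthesis or efflux. Within animals ABCA1 had an r of 0.62 with SREBF2 and 0.54 with IDI1, or 0.57 and 0.41 without Z15303. Before the subtraction they were 0.31 and −0.15. FDFT1 and INSIG1 had an r of −0.43 within animals and SQLE and SREBF2 −0.42, or −0.32 and 0.34 without Z15303.

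**Figure D4:**
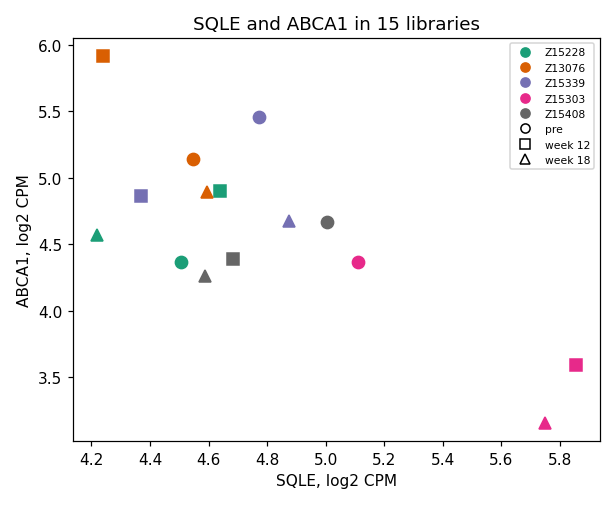
ABCA1 (vertical axis) against SQLE (horizontal axis) in the 15 libraries, in log2 CPM, with a colour for each animal and a marker for each time point. The week 12 and week 18 libraries of Z15303 lie apart from the rest, at 57.6 and 53.6 CPM of SQLE before the log and 11.8 and 8.69 CPM of ABCA1.

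The 8 genes were then set beside the rest of their pathways, 66 genes in 7 lists of which 58 were tested. No gene of the lists passed edgeR's adjusted threshold with or without the block. Of the 50 tested genes other than the 8, edgeR with the block took 1 at an unadjusted p of 0.05 at week 12, PLTP as higher, against 1.44% of features. At week 18 vs. pre-treatment it took 0 as higher and 2 as lower, SMPDL3A and ELOVL5, against 2.07% and 3.78% of features (5.85% in all). At week 18 vs. week 12 it took 0, against 1.01% lower and 1.16% higher (2.17% in all). Without the block it took 0 of the 50 in each comparison. The median log2 fold change of the 50 was −0.01, 0.0033 and −0.01.

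Of 19 tested enzymes of sterol synthesis, 9 had a positive and 10 a negative log2 fold change at week 12, with a median of −0.01. MVK, mevalonate kinase, stood at 0.39 at week 12 (−0.06 to 0.85), the sterol reductase TM7SF2 at −0.38 (−0.82 to 0.07) and SC5D, a late sterol desaturase, at −0.35 at week 18 (−0.92 to 0.21), or −0.18 without Z15303. The 7 SREBP control genes stood between −0.14 and −0.0031 at week 18 vs. pre-treatment, and MBTPS2, a protease that releases SREBP, stood at −0.19 at week 12. Among uptake and transport genes, the sterol carrier STARD4 stood at −0.40 at week 12 (−1.25 to 0.44). NCEH1, a cholesteryl ester hydrolase, stood at −0.41 at week 12 (−1.01 to 0.18), and CYP27A1, which makes an oxysterol, at 0.22 at week 18 (−0.70 to 1.14), when it was higher in 5 of 5 animals, as 3.04% of features were. MVK, STARD4 and NCEH1 had few reads, with means of 5.67, 5.05 and 5.52 CPM before treatment.

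The LXR genes NR1H3 and NR1H2 stood, in this order, at 0.19 at week 12 (−0.14 to 0.53) and at 0.19 at week 18 (−0.04 to 0.43). Among LXR targets other than the transporters, PLTP, a phospholipid transfer protein, was higher at week 12 in 5 of 5 animals, as 2.23% of features were, by 0.12 to 0.65 on the log2 scale. Its log2 fold change was 0.33 without the block (−0.38 to 1.05) and 0.34 with it (0.10 to 0.59), where edgeR gave an unadjusted p of 0.00884 and an adjusted p of 0.733. It stood opposite to ABCA1 at week 18, at 0.22 with the block. SMPDL3A, a phosphodiesterase, was lower at week 18 in 5 of 5 animals, as 3.49% of features were, by −0.40 with the block (−0.71 to −0.10) and an edgeR p of 0.0128, adjusted to 0.695. In SMPDL3A as in ABCA1, Z15303 had the largest difference, −1.04, and without this animal the blocked value of SMPDL3A was −0.23 with an unadjusted edgeR p of 0.115. APOE, the lipid carrier of macrophages, had few reads, with 1.02 ± 0.35 CPM (SD, n = 5) before treatment and 1.75 ± 0.73 CPM at week 12, and a log2 fold change of 0.77 (−0.12 to 1.66). Of the SREBP-1 fatty acid genes, the elongase ELOVL5 stood at −0.29 at week 18 with the block (−0.53 to −0.05), with an edgeR p of 0.0223, adjusted to 0.814. Without Z15303, which had the largest difference, it was −0.16 with an unadjusted edgeR p of 0.172. GPAM, the first enzyme of glycerolipid synthesis, stood at 0.60 at week 12 (−0.05 to 1.26), and the elongase ELOVL6 at −0.51 at week 18 (−1.23 to 0.21). Both had few reads, with means of 4.32 and 3.59 CPM before treatment. GPAM differed by 1.64 in Z15228 and 0.92 in Z13076, and by −0.11 to 0.17 in the other animals. ELOVL6 differed by −1.53 in Z13076 and by −0.46 to 0.26 in the others.

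**Figure D5:**
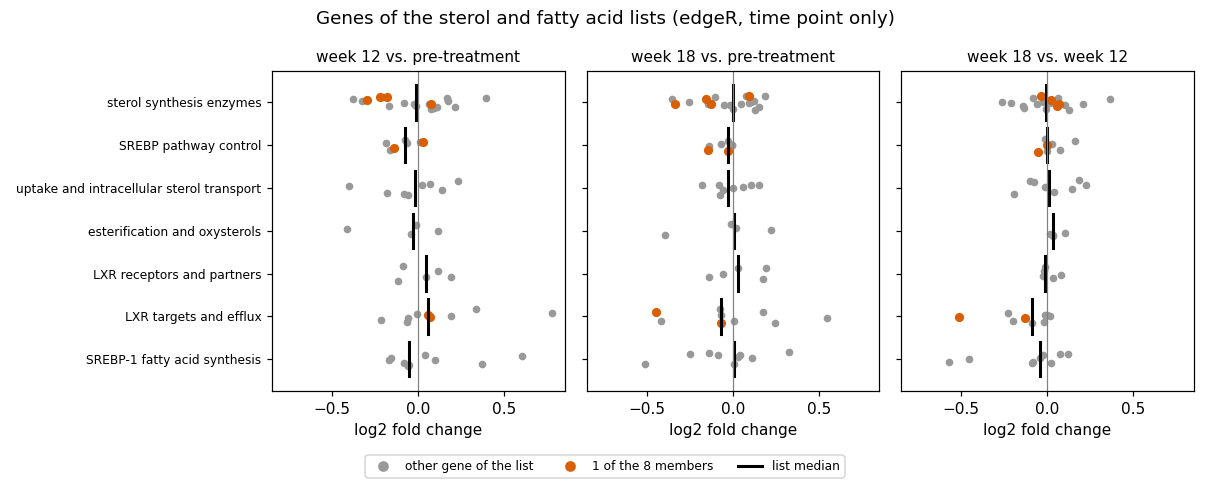
Fitted log2 fold changes (edgeR, time point only) of the tested genes of 7 sterol and fatty acid lists in the 3 comparisons. Grey points are other genes, orange points are the 8 genes, and black bars are list medians, all of which lie within 0.09 of 0.

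The features most like the 8 genes were sought by Pearson's r to their mean standardised log2 CPM, over 15 libraries after subtracting each animal's mean. For the 2 efflux genes, 10 symbols had an r between 0.91 and 0.95, led by SLC3A1 and RNF146. None of these was in the 7 lists, of which NPC1, a protein that exports cholesterol from lysosomes, came first at rank 61 of 10767, with an r of 0.84. Without Z15303 the 10 symbols had an r between 0.88 and 0.95. For the mean of the 6 synthesis and sterol-sensing genes, the 10 leading symbols ran from C1QL3 at 0.96 to RIOX2 at 0.87, or 0.83 to 0.95 without Z15303. The 10 symbols held no gene of the 7 lists, of which NCEH1 came first at rank 65 of 10763, with an r of 0.79. The other listed enzymes of sterol synthesis had an r from 0.46 for SC5D, at rank 1526, to −0.57 for EBP. MVK, MVD and PMVK of the mevalonate pathway stood at −0.56, −0.50 and −0.43.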

How the data were processed

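The authors extracted total RNA from PBMCs, made libraries by SMART-Seq v4 amplification and Nextera XT, aligned paired reads with STAR 2.7.9a to the M. nemestrina genome of Ensembl release 95, and deposited the raw read counts per gene of 15 libraries, with no normalization. The strand setting of the counting is not given in the sources used here, so reads of overlapping antisense genes cannot be told apart. Counts of 5610597 to 10379572 per library set the precision. Dates in the library names lie 56 or 57 days (week 12) and 84 days (week 18) after the first date of the animal. These days are fewer than 12 and 18 weeks. The authors' methods and a figure legend also differ on the time after the last dose, so the exact timing is not settled. The time points are named here as in the labels.

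The count table was analysed in R 4.3.3 with edgeR 4.0.16 (TMM, filterByExpr with a minimum count of 10, quasi-likelihood F test, Benjamini-Hochberg adjusted p of 0.05 over 12880 features), fitted to all 15 libraries with a term for time point and no other. Each standard error was the log2 fold change over the square root of F, and intervals are 95% intervals. CPM came from TMM-scaled libraries, and log2 CPM used a prior count of 2. Animals are paired by the subject label. Deviations from the time-point means correlated at 0.551 on average between libraries of an animal (15 pairs, 0.351 to 0.683) and at −0.137 between animals (60 pairs), so a blocked fit by animal is also given. The biological coefficient of variation was 29.3% without the block and 16.9% with it. Alternatives were DESeq2 1.42.0, other scalings, no filter, each animal left out, and the 3 animals that share dates. The scripts were tested on simulated data.

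The 8 genes and the lists were chosen with earlier results of these data known. The 23 genes followed through every alternative are the 8 genes, those of the lists at an unadjusted p of 0.05, and those with the largest change of their list in a comparison. Results for some items are not reported here, and those genes were left out of the lists and the likeness ranking. ACAT2, FDPS, CH25H, APOC1 and SCD had no row of that name, and CYP46A1, CYP7B1 and APOC2 did not pass the filter. Gene lengths and sequences were not used here, so levels were not compared between genes.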

Additional observations from a re-analysis of the deposited data

Results flagged for a closer look

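The values of the 8 genes were screened in 48 groups of 5 animals for a library or difference far from the other 4, by the gap to the nearest value over the whole range, with a limit of 0.71. Chance alone flags about 1 in 20 groups, and 3 were found. SQLE at week 12 was 57.6 CPM in Z15303, a library that stood apart in depth and on the first principal component, with a gap of 0.825 of the range. The within-animal difference in IDI1 at week 12 was 0.31 on the log2 scale in Z13076, the only animal in which it was positive. The within-animal difference in ABCG1 at week 12 was 0.75 in the same animal, whose ABCA1 also differed most upward, by 0.77. The cause of these values was not tested.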

How the results depend on the processing

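With the animal as a block, which pairs the libraries, edgeR called 1 feature at week 12 vs. pre-treatment, 1 at week 18 vs. pre-treatment and 0 at week 18 vs. week 12, against 0 each without it. The block changed no call among the 8 genes or the lists. DESeq2 called 1, 0 and 0 features without the block and 23, 50 and 8 with it, and the 3 animals that share dates gave 7, 7 and 0. Leaving out each animal in turn gave 0 to 6 features at week 12, 0 to 17 at week 18 and 0 at week 18 vs. week 12, and the 6 and the 17 came from the blocked fit without Z13076, with 3 at week 18 without Z15408. None of the 8 genes was called under any of these alternatives. The medians of the 6 and of the 2 genes moved by less than their spread between animals under each. The sign of some log2 fold changes turned, and the cause was not tested. With edgeR with the block they were SQLE −0.026 and ABCA1 −0.053 at week 12 vs. pre-treatment. With DESeq2 with the block they were SQLE −0.022 and ABCA1 −0.060 at week 12 vs. pre-treatment. With no filter they were SREBF2 0.000653 at week 18 vs. week 12. With the block on the 3 animals they were ABCA1 −0.54, ABCG1 −0.13 and ELOVL6 0.14 at week 12 vs. pre-treatment, and INSIG1 0.13, TM7SF2 0.22 and GPAM −0.26 at week 18 vs. pre-treatment, and HMGCS1 0.11, FDFT1 −0.12, SREBF2 0.078, INSIG1 0.12, MBTPS2 −0.031, CYP27A1 −0.20 and APOE 0.067 at week 18 vs. week 12. With 1 animal left out, with and without the block, the lowest and highest values of those that turned were as follows. At week 12 vs. pre-treatment they were ABCA1 −0.29 to 0.28, SQLE −0.22 to 0.17, INSIG1 −0.086 to 0.097, ABCG1 −0.14 to 0.14, ELOVL6 −0.25 to 0.15 and CYP27A1 −0.087 to 0.45. At week 18 vs. pre-treatment they were INSIG1 −0.15 to 0.095, TM7SF2 −0.13 to 0.15, GPAM −0.23 to 0.21, MBTPS2 −0.31 to 0.10, SQLE −0.13 to 0.22, STARD4 −0.44 to 0.018, FDFT1 −0.23 to 0.00693, ABCG1 −0.24 to 0.054 and MVK −0.00881 to 0.27. At week 18 vs. week 12 they were HMGCS1 −0.13 to 0.043, SREBF2 −0.064 to 0.043, STARD4 −0.036 to 0.55, INSIG1 −0.15 to 0.040, CYP27A1 −0.099 to 0.27, FDFT1 −0.087 to 0.12, SQLE −0.076 to 0.15, SC5D −0.12 to 0.082, MBTPS2 −0.014 to 0.31, NCEH1 −0.19 to 0.15, NR1H3 −0.040 to 0.011 and APOE −0.51 to 0.055.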
